A study of Mus musculus with 2 samples.

Results

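The 8 genes described belong to the neurotrophin and GDNF family pathways and were measured in the mouse thalamus: the ligands Bdnf and Ntf3, the neurotrophin receptors Ntrk2, Ntrk3 and Ngfr, and the GDNF family receptors Gfra1, Gfra2 and Ret. They were taken by symbol from the 32285 gene rows of the count tables, and all 8 had a row in both tables. Their levels are given across types of thalamic nuclei, together with the injury over sham ratio after removal of the cortical target.

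Nuclei came from the ipsilateral thalamus of female C57BL/6J mice that were 3 months old at surgery. One group had a sham operation and the other had cortical ablation injury (CAI), the surgical removal of cortex aimed at the primary sensory and motor areas, which receive many thalamic axons. Tissue was taken on day 21. Each group was 1 library of nuclei pooled in equal numbers from 4 mice, sorted by flow cytometry after propidium iodide staining and sequenced with droplet-based 3′ single-nucleus RNA-seq. Since the nuclei cannot be assigned to single mice, no difference has a replicate check and no p-value is given. Intervals in parentheses are 95% intervals of the counting error alone.

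Neurotrophins are secreted proteins that neurons and their targets use as survival and plasticity signals. BDNF binds TrkB, the product of Ntrk2, and neurotrophin-3, the product of Ntf3, binds TrkC, the product of Ntrk3, while the p75 receptor encoded by Ngfr binds all neurotrophins and their precursors. GDNF family ligands bind a lipid-anchored GFRα co-receptor, GFRα1 for GDNF and GFRα2 for neurturin, and the complex signals through the receptor tyrosine kinase Ret. Thalamic relay neurons send axons to the cortex and lose that target when it is removed.

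After the filters of the study, 16373 sham and 21777 injury nuclei were kept, with medians of 7190 and 6810 unique molecular identifiers (UMIs). Levels are UMIs of a gene per 1000000 UMIs of the class (CPM). Ratios divide the injury by the sham level and are given as log2. Classes were rebuilt from marker genes. They comprised 5585 sham and 5455 injury nuclei of 8 thalamic-like clusters (led by Lef1 and Synpo2), 1850 and 2111 of 3 habenula-like clusters, 4457 and 4862 of the other glutamatergic neurons, and 1976 and 3271 GABAergic neurons. The other glutamatergic neurons are a remainder with neither name, and thalamic neurons in it cannot be left out. Synpo2 was at 319 and 322 CPM in it, against 1010 and 1087 CPM in thalamic-like neurons. Lef1 was at 87.5 and 84.0 CPM, against 667 and 649 CPM. Glia comprised 1005 and 2318 oligodendrocytes, 209 and 510 astrocytes, 108 and 166 oligodendrocyte precursors and 27 and 154 microglia. Defining markers separated these classes: Mog, a myelin gene, was at 992 and 890 CPM in oligodendrocytes and at 1.11 and 1.46 CPM in thalamic-like neurons. UMIs of other cell types were present in the classes: Slc17a6, the glutamate transporter of thalamic neurons, was at 173 and 164 CPM in thalamic-like neurons and at 18.7 and 17.3 CPM in oligodendrocytes. Free RNA and kept doublets as their source were not tested. The 3 clusters N20, N23 and N26 stood apart, because they held 1 sham nucleus between them and 877 injury nuclei. They were kept out of the class comparisons. The ratio of a class also moves with the mix of its clusters, so cluster values are given beside it. The 2 tables shared 101 barcodes, 0.616% of the sham and 0.463% of the injury barcodes.

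**Figure D1:**
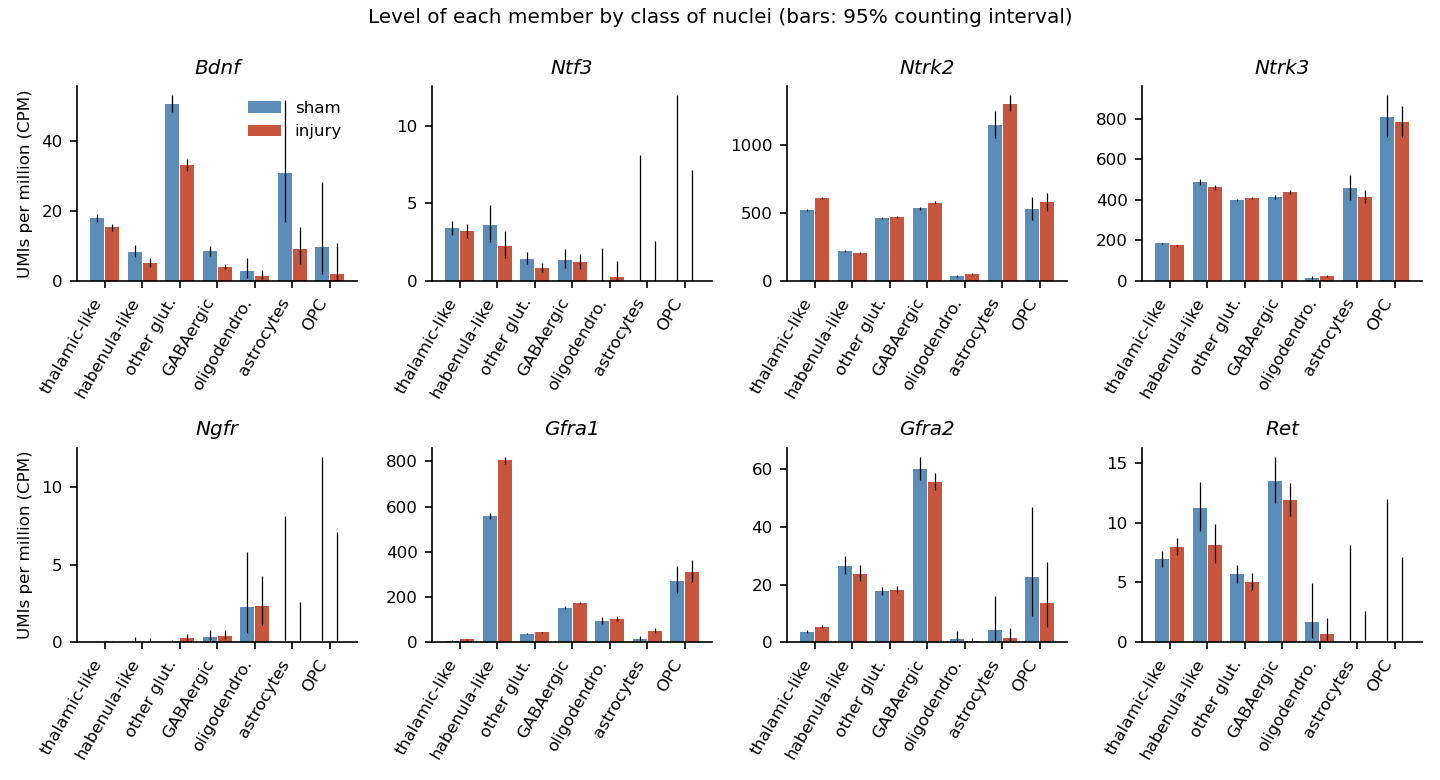
Level of each gene in 7 classes of nuclei in the sham (blue) and injury (red) libraries, in CPM on a linear axis that differs between panels, with lines for the 95% counting interval. Ntrk2 was highest in astrocytes, Ntrk3 in oligodendrocyte precursors and Gfra1 in habenula-like neurons, and the Ngfr levels do not exceed 2.31 CPM.

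To determine where the ligands were expressed, Bdnf was examined first. Bdnf (ENSMUSG00000048482, GRCm38 chromosome 2, 109674700 to 109727007, plus strand) had 3470 sham UMIs and 3216 injury UMIs. Of the classes compared, its level was highest in the other glutamatergic neurons, at 50.8 CPM in sham and 33.0 CPM in injury nuclei. Thalamic-like neurons had 17.9 and 15.4 CPM. Habenula-like neurons had 8.37 and 5.14 CPM, and GABAergic neurons had 8.41 and 4.03 CPM. The intervals of these last classes overlapped within each library, whereas the other glutamatergic and the thalamic-like neurons each stood above them without overlap. Astrocytes had 14 and 13 UMIs, or 30.9 (16.9 to 51.8) and 9.08 (4.83 to 15.5) CPM. In oligodendrocytes 5 sham and 6 injury UMIs were counted, equal to 2.83 and 1.39 CPM, and microglia had none. Outside the classes compared, cluster N23 had 71.6 CPM, N26 60.4 CPM and N20 4.15 CPM with both libraries summed.

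Bdnf was lower in the injury library in every neuronal class. The log2 ratio was -0.62 (-0.72 to -0.52) in the other glutamatergic neurons, -0.22 (-0.35 to -0.09) in thalamic-like neurons, -0.70 (-1.19 to -0.23) in habenula-like neurons and -1.06 (-1.47 to -0.66) in GABAergic neurons. With an equal mix of clusters the habenula-like ratio was -0.49, and clusters N8 and N12 went from 12.3 to 9.19 CPM and from 8.07 to 5.97 CPM. In GABAergic neurons Bdnf was past 1.5-fold with an interval that left out equality, as were 5.42% of the 15380 genes with at least 50 UMIs. That share was not computed for the other glutamatergic and habenula-like neurons, so no such call is made there. The share of nuclei with a Bdnf UMI moved the same way, from 13.6% to 11.95% of thalamic-like nuclei and from 4.00% to 2.38% of GABAergic nuclei, against 0.498% and 0.259% of oligodendrocytes, which have a median of 1552 and 1656 UMIs against 9684 and 9884 in thalamic-like nuclei. When each nucleus was thinned to 1000 UMIs, the thalamic-like shares were 1.74% and 1.45%.

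The lower Bdnf level was spread over clusters. Among 20 neuron clusters with at least 50 nuclei in each library, 19 had at least 20 Bdnf UMIs, and the ratio was below 0 in 18 of them. Of the 8838 genes with 20 UMIs in at least 19 clusters, 7.91% were lower in at least 18. The interval lay wholly below 0 in 6 clusters for Bdnf, and in at least 6 for 14.5% of those genes. The largest numbers of UMIs were in N0, a glutamatergic cluster led by Lmx1a, Ebf3 and Sim1, which went from 50.1 to 27.8 CPM (log2 ratio -0.85, -1.02 to -0.68), and in thalamic-like cluster N2, which went from 31.8 to 27.9 CPM (-0.19, -0.36 to -0.02). Cluster N4, led by Sycp2l and Lypd6b, went from 57.9 to 39.8 CPM, and N5, led by Col12a1, from 46.5 to 31.9 CPM. The single cluster with a ratio above 0 was thalamic-like N13, with 16.3 and 17.9 CPM (0.13, -0.31 to 0.58).

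Bdnf transcripts start at several promoters, and counts per gene do not tell them apart. RefSeq promoters were available for 5 of the 8 genes, with 7 for Bdnf. The 250 bases before each start were searched on both strands for TGACG, the core of the cAMP response element, and for the longer forms TGACGTCA and TCACGTCA. Of the 7 Bdnf promoters, 1 held TGACG, read on the opposite strand as the end of TCACGTCA, and this core began 35 bases before the start site. This window is shown because it holds the only match among the members' promoters, with TCACGTCA in capitals. An Ntf3 promoter without a match is shown for comparison. Of 32851 promoters of this length in RefSeq, 17.8% held TGACG, 1.55% held TGACGTCA and 0.350% held TCACGTCA. A match describes the letters only.
Bdnf promoter (GRCm38.p6, chr2:109692186-109692435, plus strand): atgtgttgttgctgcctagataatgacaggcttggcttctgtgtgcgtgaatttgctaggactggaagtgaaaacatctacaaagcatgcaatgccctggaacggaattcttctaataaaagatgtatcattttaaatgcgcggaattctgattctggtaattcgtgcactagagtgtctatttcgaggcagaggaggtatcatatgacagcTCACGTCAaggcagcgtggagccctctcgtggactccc
Ntf3 promoter (GRCm38.p6, chr6:126164961-126165210, minus strand): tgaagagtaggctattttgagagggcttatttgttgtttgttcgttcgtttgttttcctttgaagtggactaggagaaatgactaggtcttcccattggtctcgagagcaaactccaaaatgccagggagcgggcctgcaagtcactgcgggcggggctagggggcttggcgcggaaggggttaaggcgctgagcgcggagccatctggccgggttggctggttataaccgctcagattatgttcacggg

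Ntf3 (ENSMUSG00000049107, chromosome 6, 126101412 to 126166910, minus strand) was higher in the injury library as a whole, and this difference lay outside the classes compared. It had 350 sham and 880 injury UMIs, equal to 2.55 and 4.92 CPM (log2 ratio 0.95, 0.77 to 1.13). Clusters N20, N23 and N26 gave 536 of the 880 injury UMIs, or 60.9%, and none of the sham UMIs. Without these 3 clusters Ntf3 was at 2.55 CPM in sham and 2.02 CPM in injury nuclei, and the ratio turned to -0.33 (-0.55 to -0.11).

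The 3 clusters had the highest Ntf3 levels of all. N26 reached 88.7 CPM (119 UMIs), N20 60.7 CPM (248 UMIs) and N23 48.0 CPM (169 UMIs), against 10.7 and 10.3 CPM in thalamic-like cluster N6, the highest among clusters that had over 10 UMIs and 50 or more nuclei in both libraries. N20 is a GABAergic cluster led by Meis2, Ano2 and Myo5b. N23 and N26 are led by Slc17a7, Smoc2 and Neurod2, with Neurod6 in N23 and Dsp in N26, and fall under the cortex-like markers, genes of cortical and hippocampal excitatory neurons. Since 1 sham nucleus fell into these clusters, a difference between the pools in which tissue was dissected and a difference caused by the injury cannot be told apart.

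**Figure D2:**
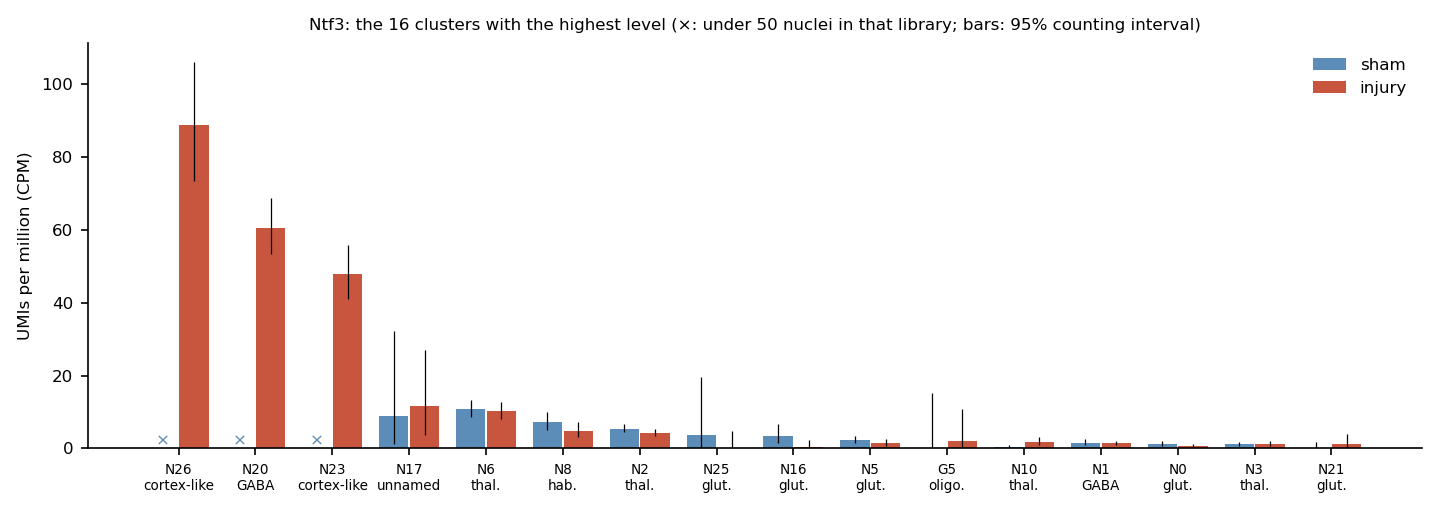
Ntf3 level (CPM) in the 16 clusters where it was highest, in the sham (blue) and injury (red) libraries, with 95% counting intervals and a cross where a library had under 50 nuclei. The 3 clusters nearly absent from sham reach 48.0 to 88.7 CPM, and every other cluster shown is at or below 11.6 CPM, with mixed clusters left out.

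Within the classes compared, Ntf3 was low. Its ratio was below 0 in the 4 neuronal classes, but at the finer clustering resolution of 1.0 the habenula-like levels were 0.135 and 0.418 CPM and that ratio turned to 1.63. Thalamic-like neurons had 204 and 197 UMIs, or 3.38 and 3.197 CPM (log2 ratio -0.08, -0.37 to 0.21). Habenula-like neurons had 3.57 and 2.21 CPM (-0.69, -1.45 to 0.05), GABAergic neurons 1.33 and 1.19 CPM (-0.17, -1.06 to 0.76) and the other glutamatergic neurons 1.42 and 0.843 CPM (-0.76, -1.42 to -0.11). Most thalamic-like UMIs came from N2 (102 and 80 UMIs) and N6 (83 and 80 UMIs). Astrocytes, oligodendrocyte precursors and microglia had no Ntf3 UMI in either library, where in sham astrocytes 3 UMIs would equal 6.61 CPM.

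Ntrk2, the gene of the main BDNF receptor, was highest in astrocytes and high in most neurons. Ntrk2 (ENSMUSG00000055254, chromosome 13, 58806569 to 59133970, plus strand) had 64704 sham and 94533 injury UMIs. Astrocytes had the highest level, at 1144 and 1303 CPM. GABAergic neurons had 532 and 573 CPM, oligodendrocyte precursors 528 and 579 CPM and thalamic-like neurons 521 and 609 CPM, and in sham the precursors overlapped with both neuronal classes. The other glutamatergic neurons followed at 465 and 467 CPM, habenula-like neurons at 217 and 204 CPM and oligodendrocytes at 35.1 and 48.5 CPM. Over all nuclei Ntrk2 was at 471 and 528 CPM and Slc17a6 at 144 and 118 CPM, so the oligodendrocyte level was a smaller share of the whole for Ntrk2 than for Slc17a6. The part of free RNA in it was not tested. Microglia had 1 and 22 UMIs. A UMI of Ntrk2 was seen in 94.9% and 96.3% of thalamic-like nuclei and in 5.37% and 7.68% of oligodendrocytes. At 1000 UMIs per nucleus the shares were 38.9% and 44.3% against 4.08% and 4.23%.

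Among neurons, Ntrk2 ranged widely. Outside the classes compared, cluster N20 had 965 CPM, N23 693 CPM and N26 417 CPM with both libraries summed. The reticular-like GABAergic cluster N9, led by Meis2, Gad1 and Six3 with Pvalb among its markers, had 720.3 and 808 CPM. Within the habenula-like class, N7, led by the cholinergic gene Chat, had 94.1 and 95.9 CPM and N12 147 and 153 CPM, while N8 had 320.2 and 339 CPM.

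Ntrk2 was higher after injury in all 8 thalamic-like clusters, and all 8 intervals lay above 0. Of 10388 genes with at least 20 UMIs in each of these clusters, 0.539% had all 8 intervals above 0 and 7.37% had all 8 ratios above 0. Intervals narrow as UMIs rise, and Ntrk2 had from 2663 UMIs in N22 to 20574 in N2 over both libraries. The 0.539% thus depends on depth as well as on the ratio, and the 8 clusters share the same 2 libraries. The differences were small, from 0.11 to 0.29 with a median of 0.24 on the log2 scale, and 0.23 (0.20 to 0.25) in the class, so Ntrk2 did not reach 1.5-fold, which 4.83% of 17033 genes did in thalamic-like neurons. In N3, led by Prkcd and Adgrf5, Ntrk2 went from 570.2 to 673 CPM, and in N2 from 498 to 589 CPM. In N15, led by Npsr1, it went from 605 to 737 CPM. GABAergic neurons (0.11, 0.07 to 0.15) and astrocytes (0.19, 0.05 to 0.33) had ratios above 0 as well. The other glutamatergic neurons were at 0.01 (-0.02 to 0.04), with N0 lower (-0.08, -0.13 to -0.03) and N24, the cluster led by Sim1, Oxt and Hcrt, lower (-0.41, -0.59 to -0.22). Over all neuron clusters the interval lay above 0 in 13 of 20 and below 0 in 2.

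Long genes had higher ratios than short genes as a group. In thalamic-like neurons the 593 genes that span over 300 kb had a median log2 ratio of 0.05, the 4546 genes of up to 10 kb a median of -0.18, and all genes tested a median of -0.02. Ntrk2 spans 327 kb. The part of this trend in the Ntrk2 ratio was not tested. The antisense genes Gm47423 and 4930415C11Rik lie within Ntrk2, and whether strand was used in counting is not given in the sources used here. Their thalamic-like ratios were -0.32 and -0.08, below that of Ntrk2. In GABAergic neurons they were -0.05 (-0.22 to 0.12) and 0.36 (0.23 to 0.49), against 0.11 for Ntrk2. The part of these 2 genes in the Ntrk2 ratio was not tested. Counts per gene do not separate full-length TrkB from the truncated form without a kinase domain that astrocytes are known for.

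**Figure D3:**
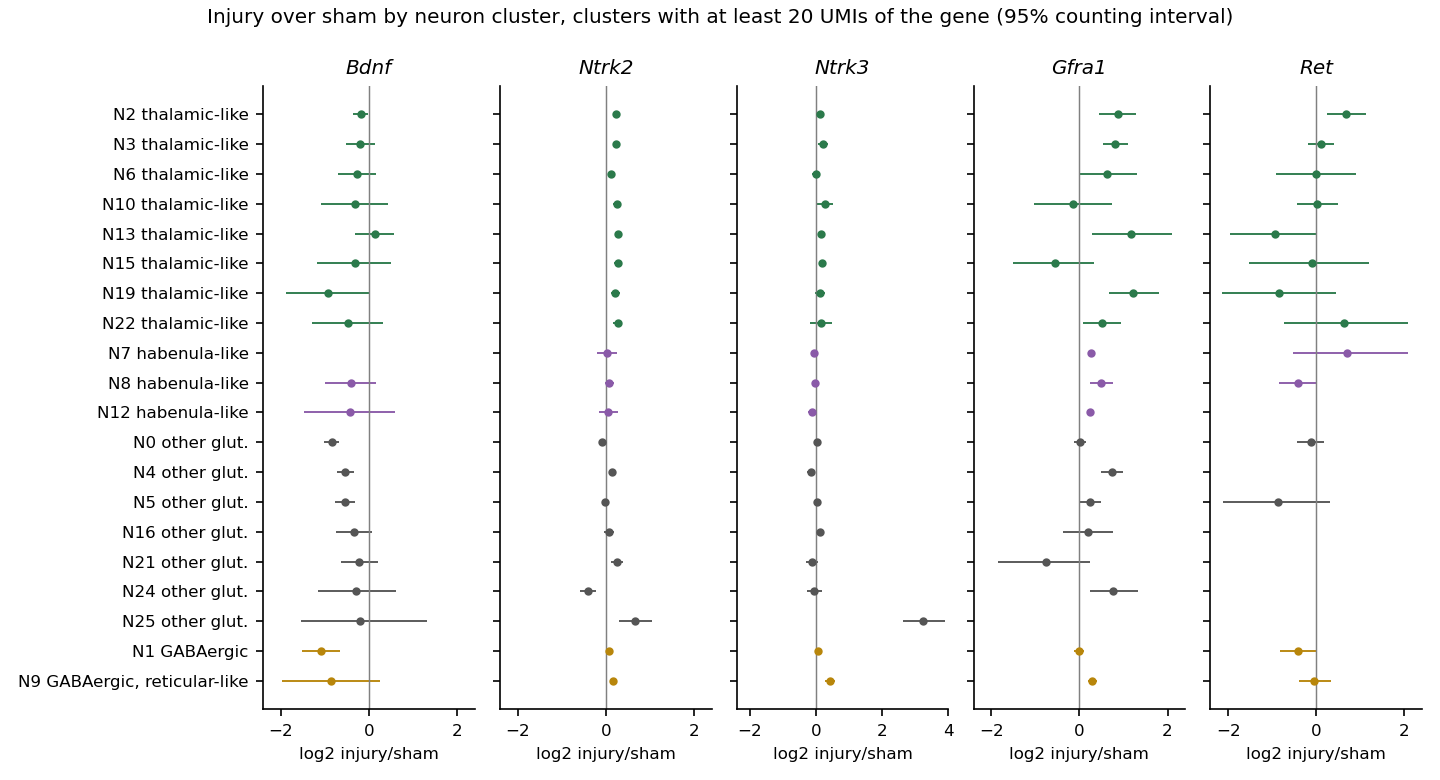
Log2 injury over sham ratio of 5 genes in the 20 neuron clusters compared, as points with 95% counting intervals and a grey line at 0, for clusters with at least 20 UMIs of the gene. Colours mark thalamic-like (green), habenula-like (purple), other glutamatergic (grey) and GABAergic (gold) clusters. Bdnf points lie left of 0 in 18 of 19 clusters, and the Ntrk2 points of all 8 thalamic-like clusters lie right of it.

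Ntrk3 (ENSMUSG00000059146, chromosome 7, 78175959 to 78738012, minus strand) had 41499 and 60341 UMIs. Oligodendrocyte precursors had the highest level of the classes, at 810 and 783 CPM, a class in which NT-3 and TrkC have long been studied. Habenula-like neurons had 489 and 463 CPM, astrocytes 458 and 416 CPM and GABAergic neurons 416 and 438 CPM, and the astrocyte interval overlapped with both neuronal classes in sham. The other glutamatergic neurons had 399 and 409 CPM, thalamic-like neurons 186 and 175 CPM and oligodendrocytes 16.4 and 23.3 CPM, against 302 and 337 CPM over all nuclei, again a smaller share than that of Slc17a6.

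Thalamic-like clusters differed from each other in Ntrk3 far more than the libraries did. N15 had 733 and 834 CPM and N13 556 and 611 CPM, whereas N3 had 43.2 and 50.1 CPM and N10 34.5 and 41.7 CPM. The class ratio was -0.09 (-0.12 to -0.05), but all 8 clusters had a ratio above 0, from 0.01 to 0.27 with 5 intervals above 0. With the same mix of clusters in both libraries the class ratio was 0.14. N15 and N13 together took fewer of the injury nuclei, with N15 falling from 466 to 268 nuclei and N13 from 506 to 442. In the reticular-like cluster N9 Ntrk3 went from 123 to 164 CPM (0.42, 0.26 to 0.58).

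Cluster N25, led by Ebf2, Postn and Corin, stood out with 23 sham and 596 injury UMIs of Ntrk3, or 81.0 and 756 CPM (3.22, 2.62 to 3.89), in 71 and 172 nuclei. In that cluster 22.3% of 3754 genes passed 1.5-fold. Ntrk2 was also higher there (278 and 442 CPM, log2 ratio 0.67, 0.31 to 1.04). The injury-only clusters N26 and N23 had Ntrk3 at 1476 and 914 CPM, above every cluster with at least 50 nuclei in a library. N20, N23 and N26 together raised the ratio over all nuclei from 0.03 (0.01 to 0.05) to 0.16 (0.14 to 0.18).

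Ngfr (ENSMUSG00000000120, chromosome 11, 95568818 to 95587735, minus strand) was close to the limit of detection, with 12 sham and 40 injury UMIs in all. Oligodendrocytes had 4 and 10 UMIs, or 2.26 and 2.31 CPM, and GABAergic neurons 5 and 10 UMIs. Thalamic-like neurons had 0 and 1 UMIs and astrocytes none. In the other glutamatergic neurons 1 sham and 12 injury UMIs were counted (3.4, 0.64 to 8.82). The oligodendrocyte intervals (0.616 to 5.79 CPM in sham, 1.11 to 4.25 CPM in injury) lay above those of thalamic-like neurons, which did not exceed 0.0904 CPM. In sham the oligodendrocyte interval overlapped with that of GABAergic neurons (0.114 to 0.817 CPM). With so few UMIs, levels of Ngfr were not compared further between classes.

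Of the GDNF family receptors, Gfra1 was examined first, and its level differed strongly between classes and clusters. Gfra1 (ENSMUSG00000025089, chromosome 19, 58235604 to 58455909, minus strand) had 11778 sham and 22202 injury UMIs. Habenula-like neurons led at 557 and 804 CPM, followed by oligodendrocyte precursors at 272 and 311 CPM, GABAergic neurons at 153 and 174 CPM, oligodendrocytes at 96.1 and 105 CPM, the other glutamatergic neurons at 37.7 and 45.3 CPM, astrocytes at 13.2 and 51.7 CPM and thalamic-like neurons at 7.54 and 13.2 CPM. In sham only astrocytes and thalamic-like neurons overlapped among neighbours in this order.

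Single clusters accounted for much of these levels. N7 reached 1185 and 1412 CPM and N12 899 and 1069 CPM, while N8, the third habenula-like cluster, had 42.3 and 59.5 CPM. In the GABAergic class, the reticular-like cluster N9 had 308 and 376 CPM and N1 had 94.4 and 93.8 CPM. Among oligodendrocytes, G5, which has the highest Gfra1 level of them and Bcas1 among its leading genes, had 245 CPM in both libraries, G0 and G1 had 107 and 139 CPM and 116 and 99.4 CPM, and G2, led by Anln and Apod, had 8.97 and 10.4 CPM.

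**Figure D4:**
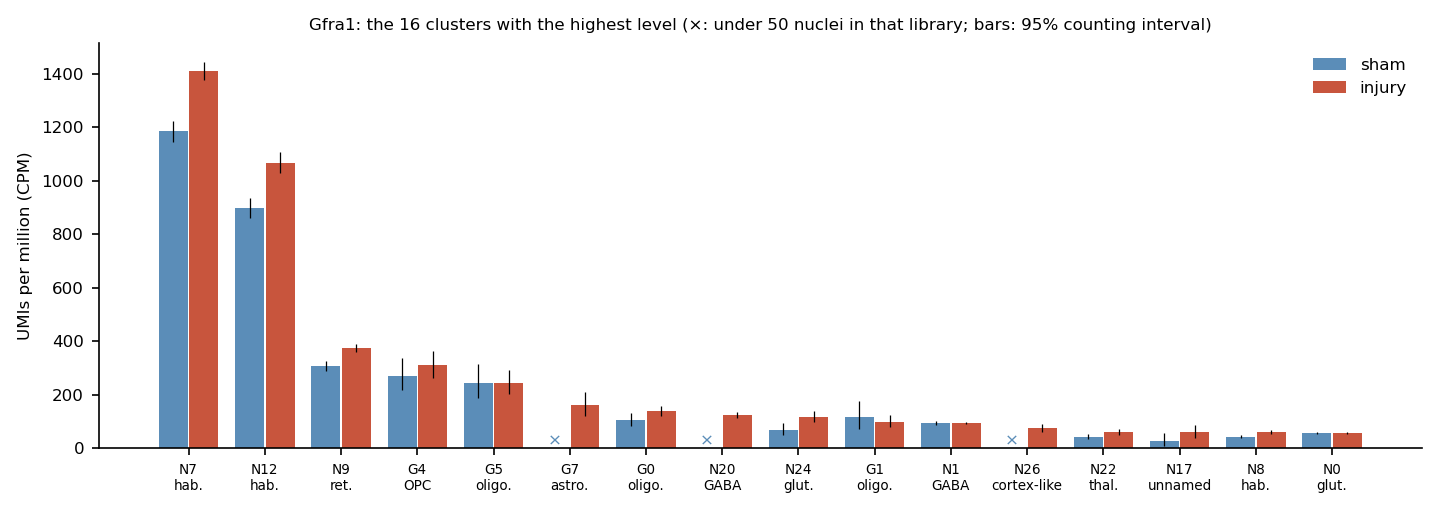
Gfra1 level (CPM) in the 16 clusters where it was highest, in the sham (blue) and injury (red) libraries, with 95% counting intervals and a cross where a library had under 50 nuclei. The habenula-like clusters N7 and N12 stand at 899 CPM or above in both libraries, and the injury-only astrocyte cluster G7 reaches 161 CPM, with mixed clusters left out.

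Gfra1 was higher in the injury library in every neuronal class. In thalamic-like neurons it went from 455 to 813 UMIs (log2 ratio 0.81, 0.64 to 0.98). It was the only member past 1.5-fold there, where 4.83% of 17033 genes were. Of the 8 clusters 6 were above 0, and the intervals of 5 lay above 0, with the largest ratios in N19 (16.7 and 38.9 CPM, 1.22, 0.67 to 1.80) and N13 (3.05 and 6.88 CPM, 1.17, 0.29 to 2.11), against values below 0 in N10 (-0.14, -1.02 to 0.74) and N15 (-0.55, -1.51 to 0.33). The largest thalamic-like clusters N2 and N3 were at 0.87 (0.45 to 1.29) and 0.81 (0.53 to 1.10). Over all neuron clusters the interval was above 0 in 11 of 19 and below 0 in none, and 2.79% of the genes with 20 UMIs in at least 19 clusters had 11 or more intervals above 0. In thalamic-like neurons a Gfra1 UMI was seen in 6.00% of sham and 9.53% of injury nuclei, or 0.734% and 1.19% after thinning to 1000 UMIs, against 2.87% of sham astrocytes, which have a median of 1892 UMIs. Markers of habenula neurons, where Gfra1 is highest, were also counted in thalamic-like neurons, with Nwd2 at 20.8 and 22.9 CPM there against 4509 and 5531 CPM in habenula-like neurons, and Chat at 0.0994 and 0.260 CPM against 60.4 and 93.1 CPM. Higher as well in injury thalamic-like neurons were Pou4f1 (0.315 and 0.536 CPM), Chrnb4 (0.0828 and 0.341 CPM) and Gng8 (0.298 and 0.471 CPM). So were Tac2 (0.381 and 0.519 CPM) and Slc5a7 (0.315 and 0.357 CPM). Lower were Tac1 (0.315 and 0.243 CPM), Gpr151 (0.331 and 0.227 CPM) and Chrna3 (0.994 and 0.941 CPM). Slc18a3 (0.0166 and 0.0162 CPM), Htr2c (197 and 183 CPM) and Gap43 (230 and 211 CPM) were also lower. The part of habenula RNA in the Gfra1 ratio was not tested. Gm16277 lies within Gfra1 on the other strand and had 11 and 25 UMIs in thalamic-like neurons (1.16, 0.08 to 2.33).

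In habenula-like neurons the class ratio was 0.53 (0.48 to 0.58). N7 and N12 were both at 0.25 (0.19 to 0.31 and 0.17 to 0.33) and N8 at 0.49 (0.24 to 0.75), and with an equal mix of clusters the class ratio was 0.26. N7 took 576 of 1850 sham and 916 of 2111 injury nuclei. All glutamatergic neurons together had a ratio of 0.62 (0.58 to 0.66), at 72.1 and 111 CPM, which became 0.26 with an equal mix. Gfra1 was the only member past 1.5-fold in them, where 4.81% of 19454 genes were. GABAergic neurons had a ratio of 0.19 (0.11 to 0.26), with 0.29 (0.19 to 0.39) in N9 and -0.01 (-0.12 to 0.11) in N1.

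Astrocytes gave the largest class ratio of Gfra1, with 6 sham and 74 injury UMIs (1.97, 0.78 to 3.46). Here 10.0% of 5906 genes passed 1.5-fold. Of the injury UMIs 56 came from the 93 nuclei of cluster G7, which had no sham nucleus and has A2m, Gfap and Aqp4 among its leading genes. For G7, as for N20, N23 and N26, a difference in dissected tissue and a difference caused by the injury cannot be told apart. G7 was at 161 CPM and G3, the cluster found in both libraries, at 13.2 and 16.6 CPM. Without G7 the ratio was 0.33 (-1.07 to 1.95). Oligodendrocytes (0.13, -0.13 to 0.39) and oligodendrocyte precursors (0.19, -0.20 to 0.59) had intervals that spanned 0.

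**Figure D5:**
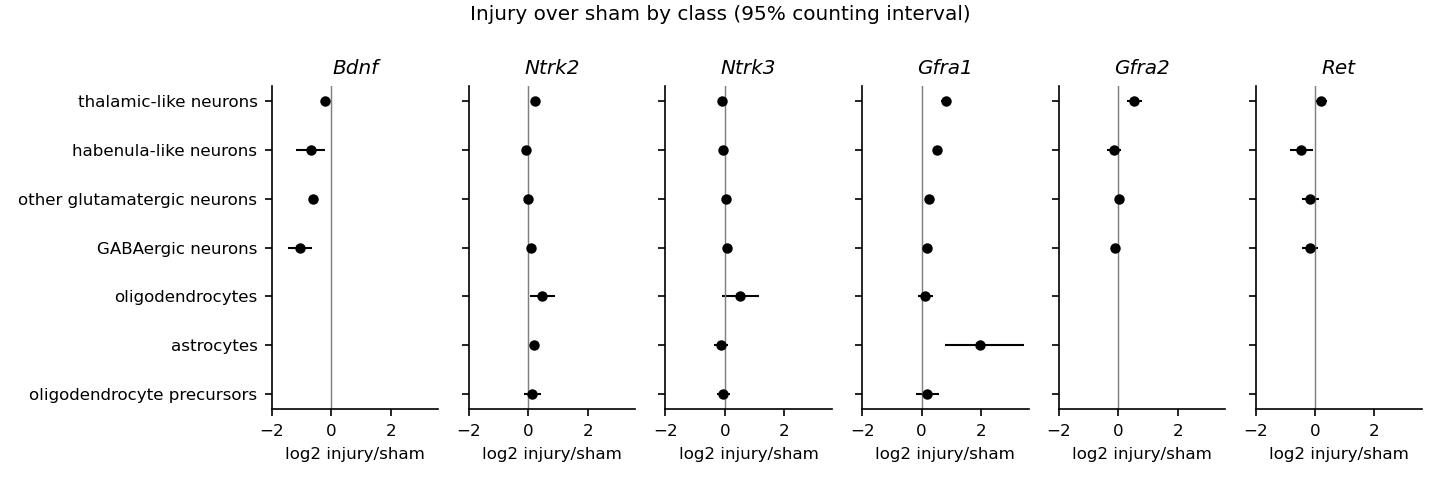
Log2 injury over sham ratio of 6 genes in 7 classes of nuclei, as points with 95% counting intervals, for classes with at least 50 UMIs of the gene. Gfra1 lies right of the grey line at 0 in all 4 neuronal classes and Bdnf lies left of it in all 4.

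Of the classes compared, Gfra2 (ENSMUSG00000022103, chromosome 14, 70890120 to 70979838, plus strand) was highest in GABAergic neurons, with 857 and 1311 UMIs there, or 60.03 and 55.5 CPM. Outside these classes, cluster N20 had 118 CPM, N26 67.1 CPM and N23 17.9 CPM with both libraries summed. Together N20, N23 and N26 gave 16.7% of the injury UMIs of Gfra2 and none of the sham UMIs. Habenula-like neurons had 26.5 and 23.8 CPM, almost wholly from N12 (63.7 and 67.9 CPM) and N8 (23.2 and 23.4 CPM). The other glutamatergic neurons had 17.8 and 18.3 CPM, and oligodendrocyte precursors 22.7 and 13.5 CPM from 7 UMIs each. Thalamic-like neurons had 3.71 and 5.40 CPM (0.54, 0.29 to 0.79), with one cluster, N6, whose interval lay above 0 (8.78 and 15.2 CPM, 0.79, 0.35 to 1.24). The ratio was -0.11 (-0.24 to 0.01) in GABAergic and -0.16 (-0.40 to 0.08) in habenula-like neurons.

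Ret (ENSMUSG00000030110, chromosome 6, 118151745 to 118197718, minus strand), the shared signalling receptor, had 1028 and 1298 UMIs which came almost wholly from neurons, with 3 UMIs in each library in oligodendrocytes and none in astrocytes, precursors and microglia. In sham, 3 UMIs would equal 6.61 CPM in astrocytes, 9.72 CPM in precursors and 93.6 CPM in microglia, which limits what these zeros can show. GABAergic neurons had 13.45 and 11.9 CPM and habenula-like neurons 11.2 and 8.14 CPM, with overlapping intervals in sham. Thalamic-like neurons had 6.96 and 8.001 CPM and the other glutamatergic neurons 5.67 and 5.06 CPM. The highest clusters were reticular-like N9 (26.1 and 25.4 CPM), habenula-like N8 (20.7 and 15.6 CPM) and thalamic-like N3 (14.0 and 15.0 CPM).

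N7 and N12, the clusters with the highest Gfra1, had Ret at 2.73 and 4.43 CPM and at 1.21 and 1.12 CPM, whereas N9 had both genes. The Ret ratio was 0.20 (0.01 to 0.39) in thalamic-like neurons, where N2 alone had an interval above 0 (3.86 and 6.17 CPM, 0.68, 0.24 to 1.12), and -0.46 (-0.85 to -0.07) in habenula-like neurons.

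Several further ligands and receptors of both families had under 1000 UMIs in each library. Ntf5, a further ligand of TrkB, had 7 sham and 6 injury UMIs. Gdnf had 172 and 299 UMIs, Nrtn 113 and 93, Artn 53 and 49 and Pspn 15 and 12. Gfra4, the persephin co-receptor, had 892 and 912 UMIs and Gfra3 15 and 16. In thalamic-like neurons Gdnf was at 1.92 and 2.66 CPM (0.47, 0.12 to 0.83) and Nrtn, the gene of the GFRα2 ligand neurturin, at 0.712 and 0.389 CPM (-0.87, -1.66 to -0.12).

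Other genes of these pathways were read from 11 lists of 118 genes. In glutamatergic neurons 5 of the 111 genes with at least 50 UMIs passed 1.5-fold, 1 higher (Gfra1) and 4 lower, as 4.81% of all genes did, and the median ratio was -0.02 against 0.01 over all genes. The lower ones were Nrtn (0.679 and 0.397 CPM), Spry3, an inhibitor of receptor kinase signalling (0.883 and 0.518 CPM), Grb7, an adaptor that binds Ret (0.511 and 0.311 CPM), and Bex3, a partner of p75 (20.3 and 13.2 CPM, -0.62, -0.72 to -0.53). In thalamic-like neurons 3 of 106 passed, Gfra1, Nrtn and Bex3, against 4.83% of all genes. The sorting and co-receptor list had a median of 0.23 over its 8 genes there, against -0.02 over all genes tested, with none past 1.5-fold. Its largest ratio was that of Rtn4rl1, a Nogo receptor homologue, at 105 and 149 CPM (0.51, 0.46 to 0.55), and Lingo1, a co-receptor of p75, was at 126 and 160 CPM (0.35, 0.30 to 0.39), both named after their values were seen. The p75 partner list had a median of -0.22 over 10 genes, against -0.18 over all genes of up to 10 kb in this class. The spans of the list genes were not compared.

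In GABAergic neurons 1 of 100 list genes was higher past 1.5-fold and 4 were lower, as were 530 and 303 of all 15380 genes. The lower ones were Bdnf, the kinase gene Akt1 (16.4 and 8.90 CPM), the receptor kinase inhibitor Spry4 and the ERK phosphatase Dusp5. In oligodendrocytes 7 of 76 passed, where 7.11% of 9530 genes did. The 5 largest were Sh2b2, an adaptor of Trk receptors (3.96 and 12.2 CPM), Pcsk5, a proprotein convertase (3.96 and 10.9 CPM), and Rps6ka2, a kinase below ERK (17.0 and 28.9 CPM), which were higher, and Maged1, a p75 partner (29.4 and 17.3 CPM), and the adaptor Shc4 (33.9 and 20.1 CPM), which were lower. In astrocytes 3 of 56 passed, against 10.0% of all genes. They were Gfra1, the PI3-kinase subunit Pik3r1 (405 and 635 CPM, 0.65, 0.42 to 0.88) and, lower, Spry2 (74.9 and 39.8 CPM).

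For each of the 7 members with at least 500 UMIs, the genes whose level ran most like it were sought over 27 points, 23 neuron clusters and 4 glial classes, on log2(CPM + 1) with both libraries summed. The points share libraries and depth, and the correlations are given as a description. Ntrk2 was most like Gm47423, which lies within it on the other strand (Pearson r = 0.93), then Ppp2r2b (0.90) and Pfkm (0.89). Ntf3 was most like 2010300C02Rik (0.86), Tmem38b (0.80) and Wipf3 (0.78). The neuron clusters used here include N20, N23 and N26, which hold the highest Ntf3 levels, and the correlations were not computed without them. Gfra1 was like Ptpdc1 (0.79) and Syt6 (0.79), and Ntrk3 was most like Gpm6a (0.82), Ap1m1 (0.81) and Cys1 (0.80). For Gfra2 the genes were Gm15810 (0.80), Fam184b (0.79) and Dip2c (0.79), for Bdnf Npdc1 (0.78), Gabra5 (0.75) and Tmem150cos (0.73), and for Ret Gm13944 (0.78), Gm1715 (0.77) and Zfp385b (0.77).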

How the data were processed

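Single-nucleus RNA-seq was available for 1 sham and 1 injury library of thalamic nuclei. The deposited tables hold raw UMI counts per gene and barcode, which the authors made with Cell Ranger 6.0.2 against GRCm38 (mm10). Use of intronic reads and of strand is not given in the sources used here. Barcodes with over 2% mitochondrial UMIs, under 200 or over 7500 genes were left out, after the study's filter. Counts were log-normalized to 10000, integrated between libraries (Seurat 5.3.0, 1982 variable genes without the listed pathway genes, 30 components) and clustered at resolution 0.5, with neurons and other nuclei clustered again apart. Classes were named from markers. Clusters with over 50% called doublets were left out of the classes; other called doublets were kept.

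UMIs were summed per class and library and divided by their total (CPM). Intervals were exact Poisson or binomial, and cover counting error only. A zero was read against 3 UMIs. Genes were counted as past 1.5-fold with at least 50 UMIs and an interval without equality. The list genes named were the 5 largest a class at most, and the genes most alike the 3 highest by Pearson r. Some genes that these rules name are not reported here. The members, lists and thresholds were chosen with earlier results of these data known. Scripts were tested on simulated data. Alternatives were TMM factors (edgeR 4.0.16), means over nuclei, an equal mix of clusters, removal of doublets, no integration, resolution 1.0, at least 20 UMIs and 1.25-fold.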

Additional observations from a re-analysis of the deposited data

Results flagged for a closer look

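Some ratios took opposite directions in different classes, with counting intervals that left out 0 on both sides. The differences between classes were not tested, since each group was 1 library. Ntrk2 had a log2 injury over sham ratio of 0.23 in thalamic-like neurons, 0.11 in GABAergic neurons, 0.47 in oligodendrocytes and 0.19 in astrocytes, against -0.090 in habenula-like neurons. With an equal mix of clusters the habenula-like value turned to 0.069. Each of the 3 habenula-like clusters was above 0 by a small difference, with a counting interval that included 0. The oligodendrocyte level of Ntrk2 was a smaller share of its level over all nuclei than that of the neuronal gene Slc17a6, and the part of free RNA was not tested. Ntrk3 was at 0.076 in GABAergic neurons, against -0.086 in thalamic-like and -0.079 in habenula-like neurons. With an equal mix of clusters the thalamic-like value turned to 0.140, and all 8 thalamic-like clusters were above 0. Ret was at 0.20 in thalamic-like and -0.46 in habenula-like neurons, and at 0.14 and -0.22 with an equal mix of clusters.

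Ntf3 was also seen in nuclei outside the class comparisons, because the sham library had 1 nucleus in these clusters. It was at 60.7 CPM in cluster N20, 48.0 CPM in N23 and 88.7 CPM in N26 of the injury library.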

How the results depend on the processing

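No paired analysis was possible because both groups consisted of 1 library, and no replicate could be left out. Of the ratios recomputed under the alternatives, 222 stayed within the counting interval of the reported value, 29 moved out of it and 3, whose interval had left out 0, reversed. Of the 29, Ntf3 in habenula-like neurons at resolution 1.0 and Ntrk3 in glutamatergic neurons without called doublets also changed sign, from intervals that spanned 0. The removal of clusters N20, N23 and N26 was chosen after seeing the data, as was that of astrocyte cluster G7. Without the 3 clusters the log2 ratios over all nuclei were -0.33 for Ntf3, which reversed, -0.58 for Bdnf, 0.13 for Ntrk2, 0.031 for Ntrk3 and 0.20 for Gfra2. With an equal mix of clusters Ntrk2 in habenula-like neurons reversed to 0.069 and Ntrk3 in thalamic-like neurons to 0.14, Ntrk3 in glutamatergic neurons was 0.057, and Gfra1 was 0.26 in glutamatergic and in habenula-like neurons. Gfra1 in astrocytes was 0.33 with an equal mix and without G7. As means over single nuclei, Bdnf was -0.62 in GABAergic neurons, Ntrk2 0.060 in GABAergic neurons, Gfra1 0.57 in glutamatergic and 0.48 in habenula-like neurons, and over all nuclei Bdnf was -0.65, Ntf3 0.71, Ntrk2 0.11, Ntrk3 0.088, Gfra1 0.40, Gfra2 0.27 and Ret -0.18. TMM factors gave 0.11 for Ntrk2 in glutamatergic neurons, and 0.13 for Ntrk2, 0.12 for Ntrk3 and 0.50 for Gfra1 over all nuclei. Without called doublets Ntf3 was 1.14 and Ntrk3 0.14 over all nuclei, and Ntrk3 was -0.019 in glutamatergic neurons. At resolution 1.0, in habenula-like neurons, Ntf3 was 1.63, from levels of 0.135 and 0.418 CPM, and Gfra1 0.42. At the lower fold threshold the list genes counted were 15 in glutamatergic, 20 in thalamic-like and 14 in GABAergic neurons, 14 in oligodendrocytes and 6 in astrocytes. The share of all genes at that fold was not computed, so these counts are not read as results. At 1.5-fold the counts were 8 in GABAergic neurons without called doublets and 5 in astrocytes at 20 UMIs. Apart from the clusters and mixes left out, the causes were not tested. Astrocyte, precursor and microglial sums rest on few UMIs, which limits what their ratios can show.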
